A study of Mus musculus with 8 samples.

Results

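The comparison described here set CD8+CD44+CD62L- T cells sorted from irradiated MC38 tumors against T cells of the same sort from the lymph nodes (LN) of irradiated mice, 5 h after 5 Gy of whole-body ionizing radiation (IR). MC38 is a mouse colon carcinoma line, here grown under the skin of female C57BL/6 mice of 6 to 8 weeks. All 4 groups of the series, namely LN no IR, LN IR, tumor no IR and tumor IR, came from tumor-bearing mice and from the same sort, so that the controls also carried the tumor. The comparison rests on 4 of the 8 arrays, 2 of tumor IR and 2 of LN IR, and all 18193 annotated genes were compared, each through 1 probe set. In each of 2 independent experiments the cells of 4 irradiated mice and of 4 mice without IR were pooled by tissue, which gave 1 sample per group, and the labels do not say which replicate number belongs to which experiment. Tumors had been digested with enzymes and passed over a density gradient before enrichment of CD8+ cells and the sort, whereas inguinal and axillary LN were pooled and disrupted mechanically, so that the handling of the cells cannot be told apart from the tissue they came from.

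The sorted surface phenotype is that of antigen-experienced effector and effector memory CD8+ T cells. In tumors such cells are known to meet antigen repeatedly and to express cytotoxic granule proteins together with inhibitory receptors, while their counterparts in LN keep the chemokine receptors and transcription factors of cells that recirculate. Radiation stabilizes p53, which switches on genes of cell cycle arrest, stress defense and apoptosis within hours.

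The sort was checked on the sorted genes themselves. Cd8a was at 12.48 and 12.27 (log2 intensity) on the LN IR arrays and at 12.35 and 12.09 on the tumor IR arrays, and Cd44, the adhesion receptor of antigen-experienced cells, was at 11.65 and 11.62 in LN IR and at 12.004 and 12.056 in tumor IR. Both were well above the lower quartile of the arrays, which averaged 5.54 in both groups and served as a background level throughout. A list of 13 T cell identity genes had a mean level of 11.43 and 11.02 on the LN IR arrays and 11.22 and 11.06 on the tumor IR arrays, and none of the 13 passed the test.

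Transcripts of other cells were present on the tumor arrays. Among 23 markers of macrophages and monocytes, 16 were higher in tumor IR than in LN IR, and their summed linear intensity was 9175 and 9331 on the LN IR arrays against 21304 and 43997 on the tumor IR arrays. Of 17 fibroblast markers 9 were higher, with sums of 7349 and 3989 against 24420 and 25453. Of 17 epithelial and carcinoma markers 4 were higher, namely Cdh1, Tjp1, Sox9 and Cdkn2a, with sums of 1713 and 1634 against 3141 and 3440, while the keratin gene Krt18 was at 6.20 and 5.87 in LN IR and 6.22 and 6.24 in tumor IR. Of 13 B cell markers 4 were lower in tumor IR, and the sums were 3812 and 4137 in LN IR against 1624 and 1823 in tumor IR. In data of pooled cells, fewer cells of a type and less RNA per cell cannot be told apart, and the part that such cells had in the results below was not tested.

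**Figure D1:**
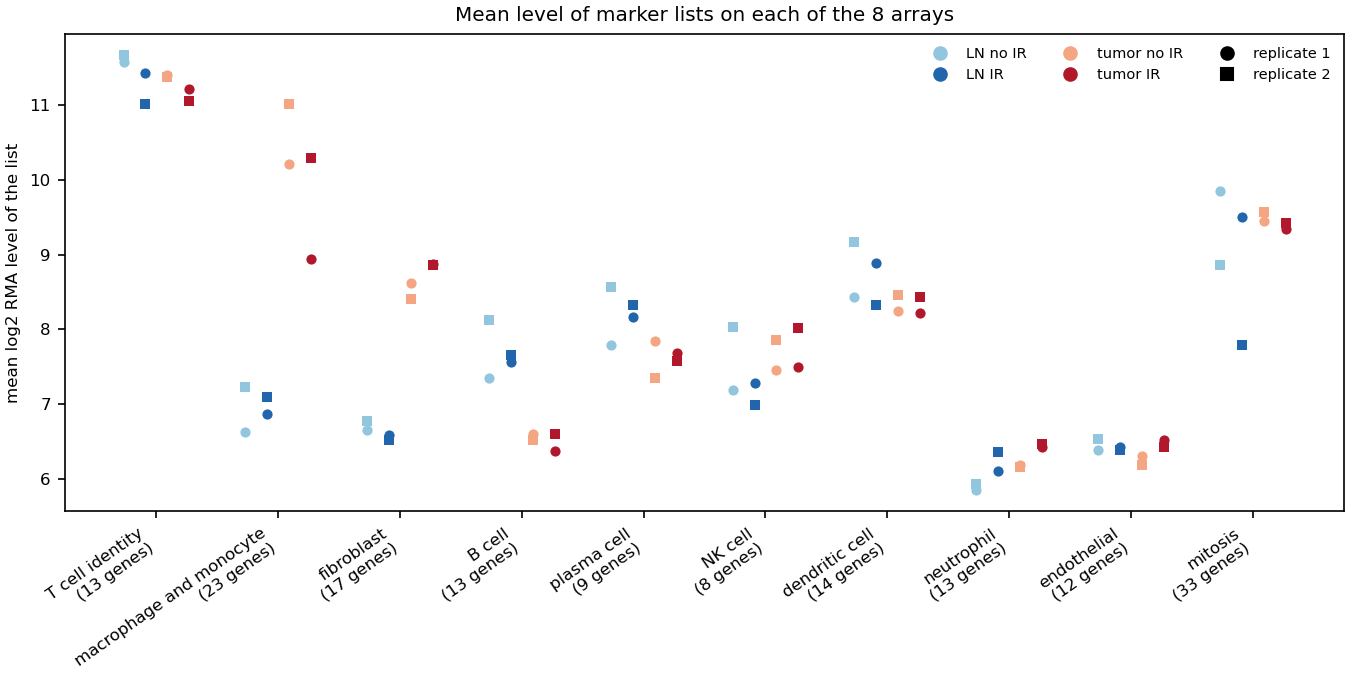
Mean log2 intensity of marker gene lists on each of the 8 arrays, with 1 point per array. The T cell identity list lies at similar levels on all arrays, the macrophage and fibroblast lists are higher on the tumor arrays than on the LN arrays, and the macrophage list is higher on replicate 2 (10.29) than on replicate 1 (8.94) of tumor IR.

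LN IR replicate 2 stood apart. It correlated with LN IR replicate 1 at r = 0.966 over 18193 genes, below the 0.992 of the tumor IR pair, and the median SD between replicates was 0.194 in LN IR against 0.0962 in tumor IR. The proliferation gene Mki67 was at 11.10 on LN IR replicate 1 and 8.21 on replicate 2, and at 11.89 and 7.92 on the unirradiated LN arrays. An immunoglobulin light chain gene, Igkv6-15, ran the other way, at 7.46 and 12.41 in LN IR and at 6.19 and 11.85 in LN no IR, so that both second LN samples shared the pattern. A gene that split the LN IR arrays in this way carried a wide error.

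In tumor T cells after IR, 873 genes were higher and 364 lower than in LN T cells after IR, where a call needed an adjusted p under 0.1 in limma and tumor and LN means at least 1 log2 unit apart. The called genes made up 6.80% of the 18193 genes, 4.80% higher and 2.00% lower, and these shares are the background against which each gene list below is read. The median log2 fold change of all genes was 0.06, that of the higher genes was 1.67 and that of the lower genes was -1.37. Large differences ran mostly one way, since 313 higher genes but 65 lower genes differed by at least 2 log2 units, and 54 against 2 by at least 4. For 201 of the higher genes the LN IR mean lay below the background level, and for 29 of the lower genes the tumor IR mean did, so that these folds have no exact size. Leaving out tumor IR replicate 1 or 2 reduced the total from 1237 to 737 or 568 genes, and leaving out LN IR replicate 1 raised it to 2412, the remaining LN IR array then being assumed to vary like the other groups. With each of the 8 arrays left out in turn, 389 of the 873 higher and 102 of the 364 lower genes were called every time, and no gene was called in the opposite direction.

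The 12 genes with the largest positive fold changes held 3 granzymes (Gzmd, Gzme and Gzmf) and 3 collagens (Col3a1, Col6a1 and Col6a3), and the others were Dpysl3, Cpe, Cav1, Cavin1, Tgfbi and Cd244a. Cav1 and Cavin1, which build caveolae, were at 4.32 and 4.51 and at 7.01 and 4.97 on the LN IR arrays, and at 9.84 and 10.08 and at 11.13 and 11.42 on the tumor IR arrays. Dpysl3, a regulator of cytoskeletal growth, was at 4.36 and 4.31 against 10.30 and 10.79, and Cpe, a carboxypeptidase of secretory granules, was at 4.07 and 3.98 against 9.38 and 9.81. Cavin1 apart, each was below the background level on both LN IR arrays. The lower genes were of other kinds. Pou2af1, a coactivator of B cells that also stands in the B cell marker list, was at 9.19 and 9.11 in LN IR and at 3.77 and 4.51 in tumor IR, and both tumor values lie below the background level, so that the size of the difference is not exact. Cmah, an enzyme that modifies sialic acid, was at 9.85 and 10.22 against 5.57 and 6.01, Tet1, an enzyme of DNA demethylation, at 9.37 and 8.86 against 5.40 and 5.61, and Nsg2 at 11.04 and 11.21 against 7.17 and 7.86. Plagl1, a zinc finger protein of growth arrest, was at 11.03 and 10.16 against 6.74 and 7.37. H2-Ob, which tunes MHC class II loading in B cells, was at 7.34 and 9.04 against 3.99 and 4.93, brighter on the LN IR array with more immunoglobulin transcript. Btla, S1pr1 and Slamf6, also among the 12 lowest fold changes, are described with their groups below.

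Genes of the cytotoxic granule were among the most different. Of 15 granzyme and perforin genes 7 were higher in tumor IR, none was lower, and the list's median log2 fold change was 0.89. Gzmd was at 2.28 and 2.41 on the LN IR arrays and at 8.99 and 9.96 on the tumor IR arrays, with an adjusted p of 0.000245 in limma. It was below the background level in LN and above it in the tumor, so that the size of the difference is not exact. Gzme was at 3.84 and 3.63 in LN IR and at 9.63 and 10.28 in tumor IR, and Gzmf was at 6.73 and 5.90 against 11.67 and 12.39. These genes and Gzmg belong to a cluster of near-identical copies, so the signal cannot be assigned to 1 copy with certainty. Gzmb, the main apoptosis-inducing granzyme, was at 10.48 and 9.07 in LN IR and at 12.14 and 12.34 in tumor IR, a rise of 2.46 ± 0.43 (SE) log2 units, and the pore-forming perforin gene Prf1 was at 9.26 and 10.02 against 11.50 and 11.35, a rise of 1.79 ± 0.54 (adjusted p = 0.0922). In each of these genes both tumor IR arrays lay above both LN IR arrays, as did those of 30.1% of all genes. Gzma was at 10.10 and 8.12 in LN IR and at 8.52 and 10.80 in tumor IR, where the groups overlapped, and it did not pass. The count of 7 fell to 4 without tumor IR replicate 1 and to 3 without replicate 2, and Gzmd, Gzme and Gzmf were called with any single array left out.

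Secreted effector molecules moved the same way in part, 5 of 13 being higher. Csf1, the macrophage growth factor, was at 8.42 and 7.25 in LN IR and at 11.44 and 11.28 in tumor IR. Fasl, a death ligand, was at 8.58 and 7.48 against 10.01 and 10.41, and Tnfsf10, which encodes the death ligand TRAIL, was at 8.64 and 8.57 against 10.09 and 9.93. Tnfsf10 differed by 1.40 ± 0.15 and Csf1 by 3.53 ± 0.47, and these 2 of the 5 were called with any single array left out. The list's count was 3 without tumor IR replicate 1 and 2 without replicate 2. Ifng, the interferon gamma gene, was at 10.73 and 8.38 on the LN IR arrays and at 12.53 and 12.07 on the tumor IR arrays. Its tumor values were both higher, but the LN pair spread so widely that a difference of 2.75 ± 0.90 had an adjusted p of 0.116.

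In a list of killer lectin receptors and other effector memory genes, 10 of 12 were higher, with a median log2 fold change of 1.96, and many of these receptors are shared with NK cells. Klra5, an inhibitory Ly49 receptor of a family with near-identical copies, was at 4.95 and 5.42 in LN IR, below the background level, and at 9.56 and 10.28 in tumor IR. Klrc1, which encodes the inhibitory receptor NKG2A, was at 9.76 and 9.40 against 11.99 and 12.23, and Klrk1, which encodes the activating receptor NKG2D, was at 9.17 and 9.32 against 11.57 and 11.44. The pairs were tight and far apart, with differences of 2.53 ± 0.18 in Klrc1 and 2.26 ± 0.14 in Klrk1. The 10 include the transcription factor genes Zeb2 and Tbx21 of terminal effector cells, higher by 3.25 ± 0.39 and 1.67 ± 0.22, as was Cx3cr1, the fractalkine receptor, by 3.25 ± 0.34. Klrg1, a marker of short-lived effector cells, was at 8.00 and 7.50 in LN IR and at 7.91 and 8.13 in tumor IR, and these overlapped. The count of 10 was 6 without tumor IR replicate 1. Of 8 NK cell markers 2 were higher, Klre1 and Ncr1, and 1 was lower, Eomes, and Ncr1 reached 6.10 and 6.01 in tumor IR.

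Of 21 genes of inhibitory receptors and exhaustion 7 were higher, 3 were lower and 11 did not pass. Cd244a, which encodes the receptor 2B4, was at 6.90 and 6.38 on the LN IR arrays and at 11.86 and 11.82 on the tumor IR arrays, a difference of 5.20 ± 0.33. Havcr2, which encodes TIM-3, was at 7.01 and 5.80 against 9.98 and 9.82. Entpd1, which encodes the ectonucleotidase CD39, was at 6.69 and 7.19 against 9.85 and 9.43. These genes were low in LN and bright in the tumor, and Lag3, Cd200r1, Tnfrsf9 and the exhaustion factor Tox were higher by 1.62, 2.10, 1.61 and 1.73. Btla went in the other direction, at 11.02 and 11.36 in LN IR and 7.74 and 7.86 in tumor IR, a difference of -3.39 ± 0.19 with an adjusted p of 0.000256. Batf, a transcription factor of effector differentiation, fell by 1.67, and Eomes, one of memory differentiation, fell by 1.001. Pdcd1, which encodes PD-1, was at 10.26 and 8.07 in LN IR and 11.12 and 10.90 in tumor IR, a difference of 1.85 ± 0.66 that did not pass (adjusted p = 0.144). Without LN IR replicate 1 the list had 12 higher genes, and without either tumor IR array 1 lower gene.

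**Figure D2:**
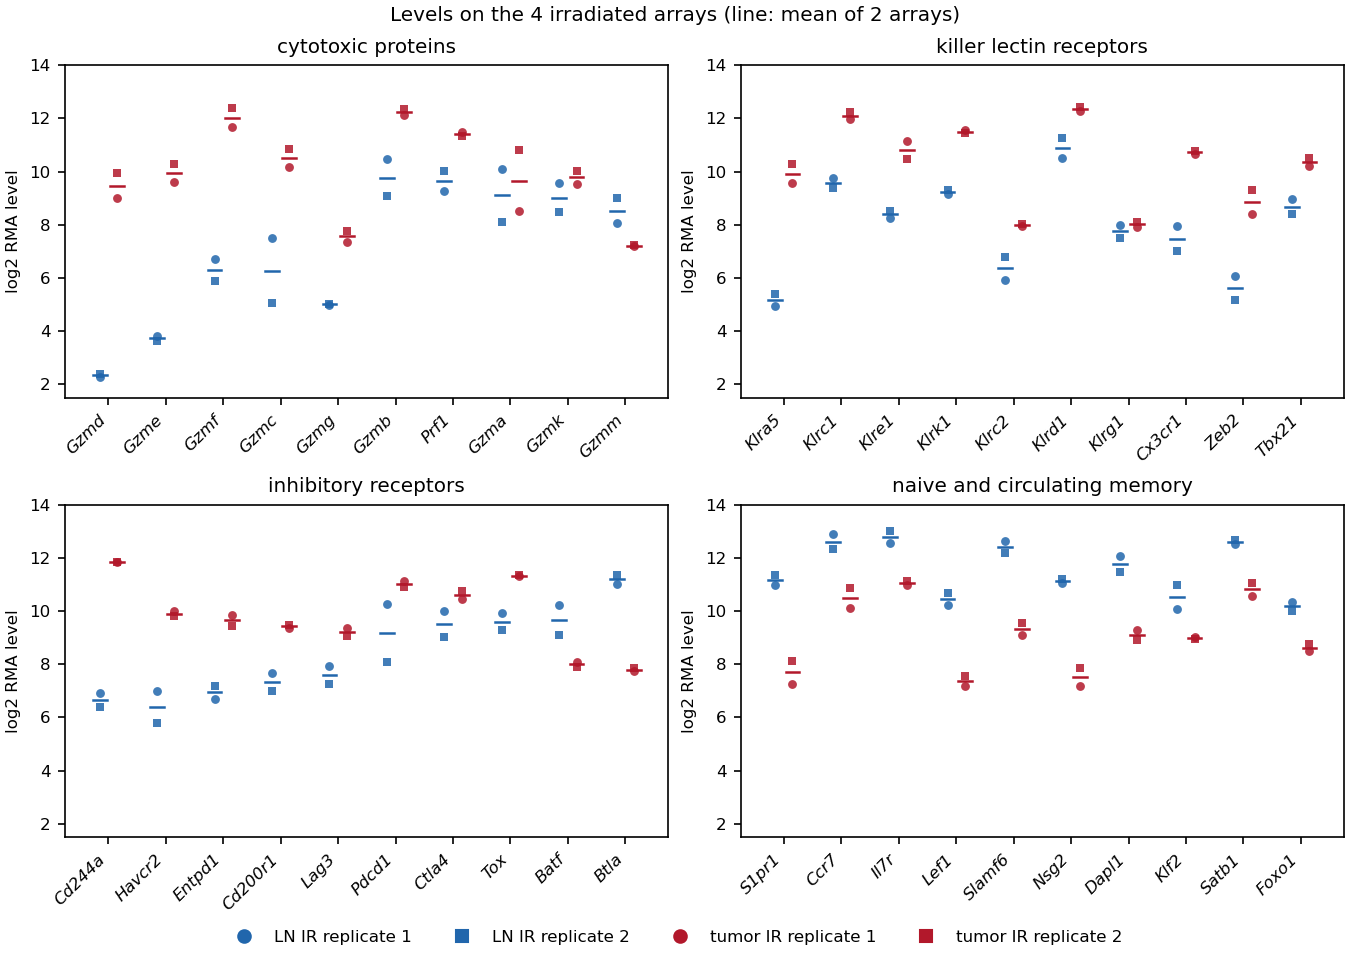
Log2 RMA level of 10 genes in each of 4 groups on the 4 irradiated arrays, with a point per array and a line at the mean of 2 arrays. Gzmd, Klra5 and Cd244a lie higher in tumor IR than in LN IR, S1pr1 and Btla lie lower, and the points of Gzma and Klrg1 overlap.

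Genes of naive and recirculating memory cells were lower in the tumor, 14 of 22 with a median log2 fold change of -1.54, and none of the 22 was higher. S1pr1, the receptor that lets lymphocytes leave LN and tissue along a lipid gradient, was at 10.97 and 11.36 on the LN IR arrays and at 7.27 and 8.12 on the tumor IR arrays, a difference of -3.47 ± 0.46. Lef1, a transcription factor of naive and memory cells, was at 10.21 and 10.68 against 7.18 and 7.54. Slamf6, a marker of the stem-like exhausted subset, was at 12.65 and 12.19 against 9.09 and 9.55. All 3 were bright in LN and still above the background level in the tumor. Ccr7, the homing receptor for LN, was at 12.88 and 12.33 against 10.13 and 10.87, and Il7r, the receptor for the survival cytokine IL-7, was at 12.57 and 13.02 against 10.97 and 11.13. Klf2, which maintains S1pr1 expression, fell by 1.53 ± 0.43, and Foxo1, which maintains Il7r expression, fell by 1.55 ± 0.25. The count of 14 became 8 without tumor IR replicate 1, and 8 genes, among them Ccr7, S1pr1, Lef1, Slamf6 and Il7r, were called with any single array left out.

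Of 27 tissue residency genes 8 were higher and none lower. Itga1, which encodes the collagen-binding integrin CD49a, was at 6.03 and 4.52 in LN IR and at 9.71 and 9.26 in tumor IR, and its LN IR mean lay below the background level. Cxcr6, which guides T cells to myeloid cells in tissue, was at 10.66 and 10.03 against 11.85 and 11.69. Cdh1, which encodes E-cadherin, was at 5.54 and 4.86 against 9.38 and 10.07, and it also stands in the epithelial marker list. The E-cadherin ligand gene Itgae, which encodes CD103, was not higher: it lay at 10.92 and 8.96 in LN IR and at 7.40 and 8.36 in tumor IR, a difference of -2.06 ± 0.74 (adjusted p = 0.149). Cd69, which holds cells in tissue by removing the S1pr1 protein, was at 11.79 and 11.77 in LN IR and at 11.47 and 11.75 in tumor IR. The residency list had 15 higher genes without LN IR replicate 1, and 5 or 4 without tumor IR replicate 1 or 2. Of the 8 higher genes, Itga1, Cxcr6, Cdh1 and the heat shock gene Hspa1a were called with any single array left out.

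Of 22 integrin genes 5 were higher and 1, Itgb7, was lower. Itgav was at 10.04 and 10.10 in LN IR and 11.39 and 11.33 in tumor IR, a rise of 1.29 ± 0.14. Itgb7, which pairs with the alpha chains of gut and epithelial homing, was at 11.94 and 11.22 against 10.37 and 10.69, a difference of -1.05 ± 0.28, a call that was lost when any 1 of the 4 tumor arrays or LN IR replicate 1 was left out. Itgam, a myeloid integrin, was at 5.88 and 5.82 against 6.86 and 8.83 (adjusted p = 0.104), and Itga9 was at 7.22 and 7.43 against 7.57 and 7.57, and neither passed. Without tumor IR replicate 2 the higher count was 2.

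Chemokine receptors changed in both directions, 6 of 18 being higher and 4 lower. Ackr3, a scavenger receptor for CXCL12, was at 3.37 and 3.37 on the LN IR arrays and at 8.41 and 8.53 on the tumor IR arrays, with an adjusted p of 6.21e-05 and both LN values below the background level. Ccr1 was at 4.85 and 5.45 against 7.66 and 9.46 and Ccr2 at 9.27 and 8.37 against 9.95 and 10.76, and both receptors are also carried by monocytes. Cxcr3, the receptor for interferon-induced chemokines, was at 11.54 and 11.36 in LN IR and 9.65 and 9.83 in tumor IR, a difference of -1.71 ± 0.16. Ccr4, a receptor of skin homing, fell by 2.97, and Cxcr5, the receptor of B cell follicles, fell by 2.22. The higher count was 3 without tumor IR replicate 2, and the lower count was 2 without either tumor IR array.

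Of 27 chemokine ligands 11 were higher and none lower, with a median log2 fold change of 0.72. Ccl3 and Ccl4, which activated CD8+ T cells and macrophages both release, were at 7.18 and 7.23 against 11.05 and 10.23 and at 7.78 and 7.53 against 9.79 and 9.05. Cxcl1, a neutrophil attractant, was at 7.76 and 6.19 in LN IR and at 9.98 and 11.24 in tumor IR. Cxcl9, a ligand of CXCR3, was at 5.84 and 5.68 against 8.34 and 9.30. In Cxcl1 and Cxcl9, as in the macrophage markers, tumor IR replicate 2 was the brighter tumor array, and in Ccl3 and Ccl4 it was the dimmer one. Ccl5, a chemokine stored by memory T cells, was at 12.38 and 12.26 in LN IR and 11.81 and 11.74 in tumor IR, a difference of -0.55 under the fold threshold. The count of 11 was 4 without tumor IR replicate 2, and those called with any single array left out were Ccl3, Ccl4, Ccl9 and Cxcl1.

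Of 35 interferon-stimulated genes 10 were lower, 5 were higher and 20 did not pass, with a median log2 fold change of -0.62 against 0.06 over all genes. The promoters of a pair of lower genes are shown here because a motif of GAAA, any pair of bases and GAAA again, a core of the element bound by interferon-activated factors, was found in them. The lines give 250 bases before the RefSeq start (GRCm38.p6), 5′ to 3′ on the gene's strand, with the motif or its reverse complement (TTTC, any pair of bases, TTTC) in capitals, for Ifit3 at chr19:34583279-34583528 on the plus strand and Oas3 at chr5:120777660-120777909 on the minus strand.
Ifit3: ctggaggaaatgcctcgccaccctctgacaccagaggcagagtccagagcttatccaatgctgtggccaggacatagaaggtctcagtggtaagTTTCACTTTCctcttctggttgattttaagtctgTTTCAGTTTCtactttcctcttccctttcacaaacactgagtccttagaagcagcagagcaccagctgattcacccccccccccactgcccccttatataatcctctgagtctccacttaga
Oas3: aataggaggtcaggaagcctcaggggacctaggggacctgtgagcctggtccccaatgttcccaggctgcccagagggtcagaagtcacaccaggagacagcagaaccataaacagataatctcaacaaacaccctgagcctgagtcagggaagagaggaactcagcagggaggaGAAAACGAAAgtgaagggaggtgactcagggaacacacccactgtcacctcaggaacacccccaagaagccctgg
The motif, chosen after the values were seen, was in 14 of the 28 members that have a RefSeq promoter here, in 4 of 6 lower, 1 of 5 higher and 9 of 17 uncalled members, and in 3.13% of the 14452 measured genes with a promoter. The list was put together as interferon-stimulated genes, so the excess of the motif over all genes is no result of these arrays. No tie between the motif and the call is read from these counts. A match of letters does not show a site in use.

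Ifit3, an RNA-binding antiviral gene, was at 10.17 and 10.63 on the LN IR arrays and at 8.02 and 8.16 on the tumor IR arrays, a difference of -2.31 ± 0.41 (adjusted p = 0.0197). Oas3, a sensor of double-stranded RNA, was at 8.72 and 8.08 against 6.70 and 6.92, and Irf7, the amplifier of the type I interferon response, was at 9.74 and 10.20 against 8.60 and 8.50. Each was lower on both tumor arrays than on both LN arrays, as were 20.0% of all genes. Zbp1, a nucleic acid sensor, fell by 1.49 ± 0.25 and Dhx58, which encodes a regulator of RNA sensing, fell by 1.84 ± 0.38. The higher members were the membrane proteins Ifitm1, Ifitm2 and Ifitm3 with Cxcl9 and Irf8. Ifitm3 was at 8.915 and 8.995 in LN IR and 11.18 and 11.39 in tumor IR, a rise of 2.33 ± 0.20. The call of the lower members was fragile: 2 of 35 were lower without tumor IR replicate 1 and 1 without replicate 2, and Mx2, Ifitm1 and Ifitm3 were called with any single array left out. The higher count was 3 and 2 in the same fits.

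Genes of hypoxia and glycolysis were higher, 13 of 35 with none lower and a median log2 fold change of 1.05. HIF-1, the factor stabilized when oxygen is low, binds the letters ACGTG, and promoters of 3 higher genes that hold them are shown. The lines give 250 bases before the RefSeq start (GRCm38.p6), 5′ to 3′ on the gene's strand, with ACGTG or its reverse complement CACGT in capitals, for Bnip3 at chr7:138909507-138909756 on the minus strand, Egln1 at chr8:124949255-124949504 on the minus strand and P4ha1 at chr10:59323046-59323295 on the plus strand. In Bnip3 the motif lies on both strands, and the copies overlap.
Bnip3: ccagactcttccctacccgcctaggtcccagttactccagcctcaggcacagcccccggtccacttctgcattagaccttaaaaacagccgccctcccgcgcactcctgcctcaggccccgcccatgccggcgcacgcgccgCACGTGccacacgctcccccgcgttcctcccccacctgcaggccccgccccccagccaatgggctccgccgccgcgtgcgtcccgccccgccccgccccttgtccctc
Egln1: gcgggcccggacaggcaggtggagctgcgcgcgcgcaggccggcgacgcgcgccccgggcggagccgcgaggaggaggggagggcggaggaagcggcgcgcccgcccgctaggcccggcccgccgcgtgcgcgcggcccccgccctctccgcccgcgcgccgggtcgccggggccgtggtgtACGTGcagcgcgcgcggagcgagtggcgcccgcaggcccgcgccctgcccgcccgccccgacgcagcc
P4ha1: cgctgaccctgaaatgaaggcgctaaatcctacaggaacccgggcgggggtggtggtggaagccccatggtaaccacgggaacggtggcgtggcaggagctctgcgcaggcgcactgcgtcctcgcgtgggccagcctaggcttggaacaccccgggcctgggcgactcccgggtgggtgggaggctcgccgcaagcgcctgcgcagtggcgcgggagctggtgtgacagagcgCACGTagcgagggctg
ACGTG on either strand was in 22 of the 32 list members with a promoter, 10 of 12 higher ones and 12 of 20 uncalled ones, against 22.5% of the 14452 measured genes with a promoter. The list was put together as hypoxia genes, so its excess over all genes is no result of these arrays. A match of letters does not show a site in use.

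Bnip3, which promotes removal of mitochondria in low oxygen, was at 7.95 and 7.48 on the LN IR arrays and at 11.21 and 11.78 on the tumor IR arrays, a rise of 3.78 ± 0.25 (adjusted p = 0.000448). Vegfa, the endothelial growth factor, was at 8.11 and 8.15 against 10.60 and 11.09, and Slc2a3, a high-affinity glucose transporter, was at 9.66 and 9.08 against 11.84 and 11.39. Egln1, the oxygen sensor that marks HIF for destruction, was at 10.36 and 9.96 against 11.17 and 11.30, and P4ha1, a collagen prolyl hydroxylase, was at 9.48 and 8.90 against 10.41 and 10.14. In each of these genes both tumor arrays lay above both LN arrays, as in 30.1% of all genes. The gene Hif1a itself was at 12.42 and 12.31 in LN IR and 12.58 and 12.48 in tumor IR, and Ldha, the lactate dehydrogenase chain of glycolysis, was at 12.63 and 12.22 against 12.55 and 12.50. Macrophages and fibroblasts also express these genes, and their markers were higher on the same arrays (sums given above). The count of 13 was 23 without LN IR replicate 1 and 6 without tumor IR replicate 2, and Bnip3, Vegfa, Slc2a3, Aldoc, P4ha2 and Ankrd37 were called with any single array left out.

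In other metabolic groups, none of 36 genes of oxidative phosphorylation passed, with a median log2 fold change of 0.09 and a range from -0.50 to 0.73, nor did any of 33 genes of MYC and ribosome biogenesis. Of 31 genes of cholesterol and fatty acid metabolism 9 were higher and 2 lower. Lss, an enzyme of sterol synthesis, was at 9.20 and 8.90 in LN IR and at 11.05 and 11.19 in tumor IR, a rise of 2.07 ± 0.21, and the synthesis genes Sqle, Idi1 and Cyp51 were higher by 1.99, 1.53 and 1.09. The cholesterol exporter gene Abcg1 was at 10.60 and 10.62 against 8.39 and 8.21, a difference of -2.31 ± 0.23. Apoe and Fabp4, which macrophages express strongly, stood among the 9 higher genes, and the count was 4 without tumor IR replicate 2. The metallothionein genes Mt1 and Mt2, which bind zinc, were higher by 1.69 and 1.74, and the redox gene Srxn1 by 2.83, and these 3 of 28 antioxidant and metal response genes were called with any single array left out. Arg1, the arginase of suppressive myeloid cells, was at 5.92 and 7.25 against 9.61 and 11.50, brighter on the tumor array with more macrophage transcripts.

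Many extracellular matrix genes were higher in tumor IR, although outside the collagens most members of the matrix lists did not pass. Of 21 collagen genes 14 were higher and none lower, with a median log2 fold change of 1.59. Col3a1 was at 5.67 and 5.99 on the LN IR arrays and at 12.70 and 12.81 on the tumor IR arrays, a difference of 6.92 ± 0.60 log2 units. Col6a1 was at 4.72 and 4.93 against 10.82 and 10.82, Col1a1 at 7.32 and 7.35 against 8.71 and 9.14, and Col4a1 at 6.14 and 6.46 against 8.81 and 9.18. Col6a1 lay below the background level in LN and the other 3 above it, and all 4 were brighter on both tumor arrays than on both LN arrays, as were 30.1% of all genes. Of 33 matrix glycoproteins and proteoglycans 13 were higher, with Fn1, the fibronectin gene, at 5.90 and 6.74 against 10.93 and 11.97 and Lamc1, a laminin chain, at 7.60 and 6.71 against 9.02 and 8.85. Of 26 matrix proteases and inhibitors 11 were higher. Mmp2, a type IV collagenase, was at 6.79 and 6.67 against 11.23 and 11.16, a rise of 4.47 ± 0.17, and its inhibitor gene Timp2 was higher by 2.12. Timp3 was higher by 3.83, but its LN IR mean of 5.53 lay just below the background level, so that this fold has no exact size. Mmp10 was at 6.72 and 6.21 in LN IR and 5.75 and 5.68 in tumor IR and did not pass.

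The matrix genes were higher on the same arrays as the fibroblast markers, and Col1a1, Col1a2, Col3a1, Dcn, Sparc, Fbln2 and Postn stand in both kinds of list. The fibroblast regulators Prrx1 and Twist1, which are not matrix genes, were higher too, and Prrx1 was at 4.98 and 4.89 in LN IR and at 8.68 and 8.51 in tumor IR. Col3a1 and Col6a1, like the summed fibroblast list, were close on the tumor IR arrays, while Fn1 and Tgfbi were brighter on tumor IR replicate 2, the array with the brighter macrophage list. Whether the matrix transcripts came from T cells or from other cells was not tested. Of the 14 collagen calls 12 were made with any single array left out, and the glycoprotein count was 8 without tumor IR replicate 2. Of 38 cytoskeleton and motility genes 8 were higher, among them Rhoc, at 7.67 and 7.01 against 9.21 and 9.46, and Vcl, the vinculin gene of focal adhesions, at 6.89 and 6.90 against 8.82 and 8.87. This list counted 19 without LN IR replicate 1, 5 without tumor IR replicate 1 and 3 without tumor IR replicate 2.

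**Figure D3:**
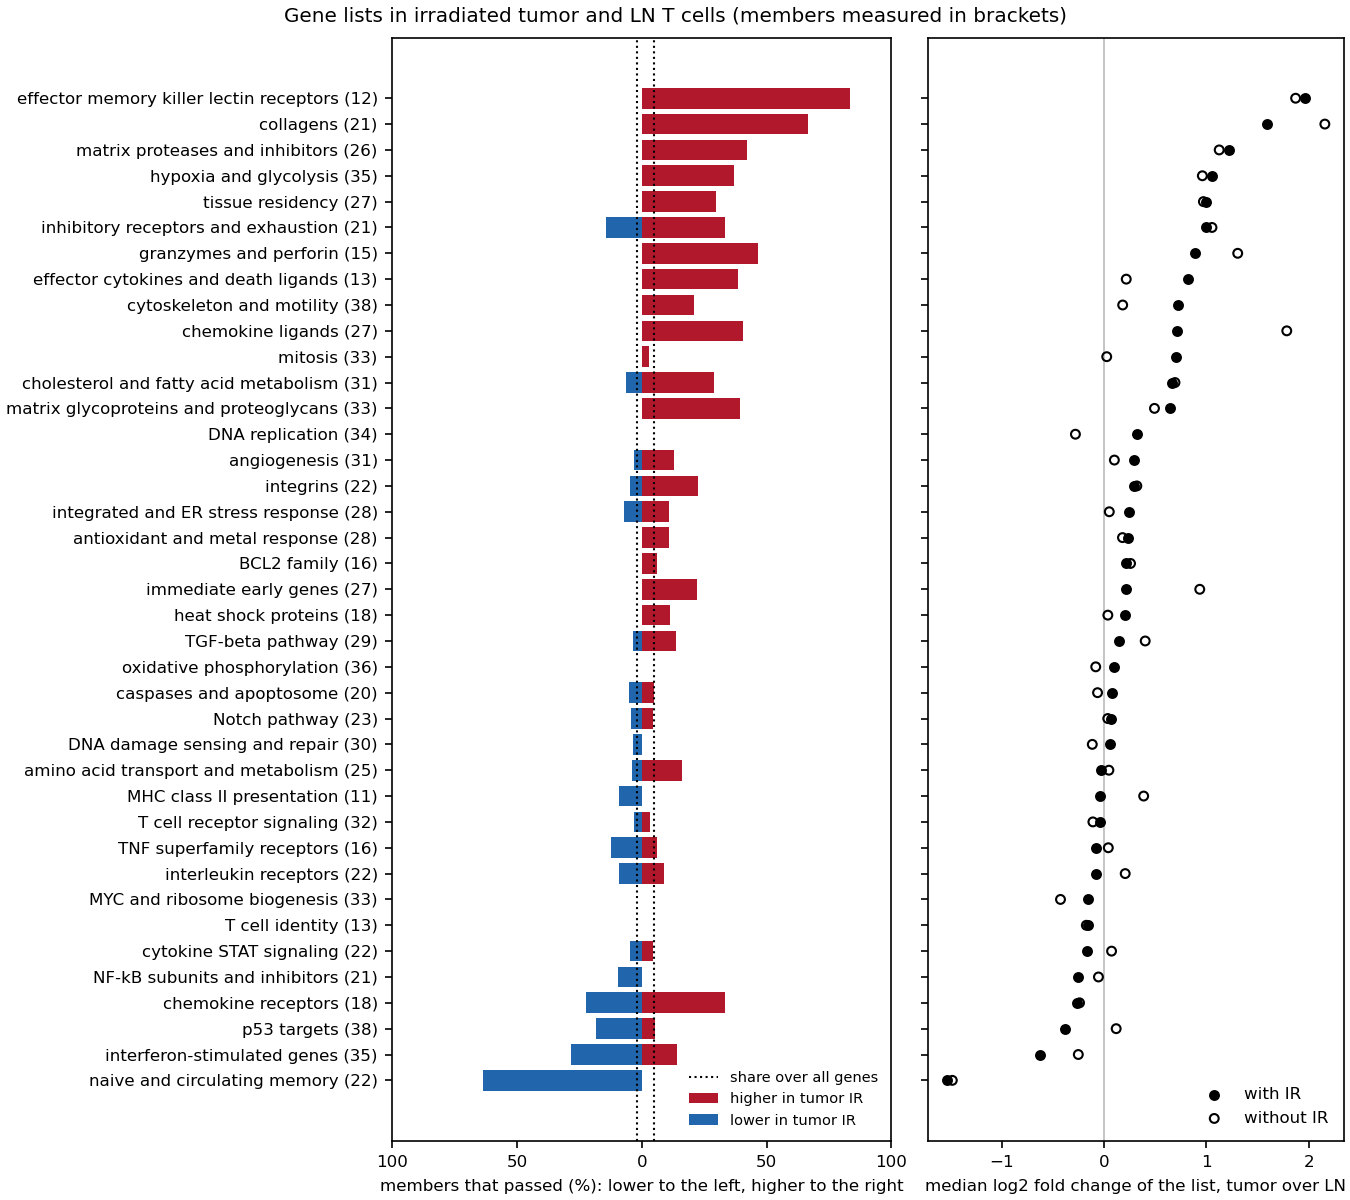
Gene lists with the number of measured members in brackets. The left panel plots the percentage of members called higher (to the right) or lower (to the left) in tumor IR, with dotted lines at 4.80% and 2.00% for all genes, and the right panel plots the list's median log2 fold change of tumor over LN with IR (filled) and without IR (open). With IR, killer lectin receptors (median 1.96) and collagens (1.59) lie at the top, naive and circulating memory genes (-1.54) at the bottom, and oxidative phosphorylation (0.09) near 0 with no call.

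Some genes switched on by p53 were lower in tumor T cells than in LN T cells after IR. Of 38 p53 target genes 7 were lower and 2 higher, and the median log2 fold change was -0.38. Fas, the death receptor, was at 9.05 and 8.88 on the LN IR arrays and at 7.37 and 7.12 on the tumor IR arrays, a difference of -1.72 ± 0.18. Sesn2, a stress sensor that restrains mTORC1, was at 11.36 and 10.99 against 9.73 and 9.68. Zmat3, an RNA-binding p53 effector, was at 11.26 and 11.10 against 10.10 and 10.05, and Ppm1d, the phosphatase that turns the damage signal off, was at 10.80 and 10.90 against 9.75 and 9.58. In each of these both tumor arrays lay below both LN arrays, as for 20.0% of all genes. The classical responders did not pass: Cdkn1a, the cell cycle inhibitor p21, was at 11.96 and 11.54 against 11.93 and 12.02, Mdm2, the p53 ubiquitin ligase, at 12.06 and 12.17 against 11.60 and 11.46, Phlda3, an inhibitor of AKT, at 10.91 and 10.97 against 10.32 and 10.22, and Bbc3, which encodes the death protein PUMA, at 9.53 and 9.64 against 8.97 and 9.13. Cdkn1a overlapped between the groups, and the other 3 lay lower on both tumor arrays. Perp and Plk3 were higher, by 1.58 (adjusted p = 0.0948) and 1.13.

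Without IR 7 of the 38 were higher in tumor T cells and 2 lower, with a median of 0.12, where 4.50% of all genes were higher and 1.04% lower. Cdkn1a was at 7.91 and 7.89 in LN no IR and at 9.60 and 10.45 in tumor no IR, Phlda3 was at 6.95 and 6.68 against 8.18 and 7.78, and Sesn2 was at 8.29 and 8.02 against 8.14 and 8.29. Cdkn1a and Phlda3 were higher in unirradiated tumor T cells, and Sesn2 overlapped between the groups. The calls of 3 members were the same with and without IR, since Fas and Trp53inp1 were lower in the tumor both times and Perp was higher, with Fas at -1.35 without IR and -1.72 with IR. The difference of the tumor over LN contrast between IR and no IR was -1.90 for Cdkn1a (unadjusted p = 0.00194), -1.83 for Phlda3 (unadjusted p = 0.00018) and -1.54 for Sesn2 (unadjusted p = 0.000514), but none passed after adjustment over all genes in limma (adjusted p = 0.66, 0.328 and 0.474), and all 3 passed when LN IR replicate 1 was left out. Over the list that difference was negative for 29 of 38 genes, against 6227 of all 18193 genes, and it had an unadjusted p under 0.05 in 10, all negative, where 2.42% of all genes were negative at that level. From LN no IR to LN IR 22 of the 38 genes were called higher, where 0.786% of all genes were. From tumor no IR to tumor IR 8 were called higher, where 0.0934% of all genes were. The list's mean log2 level in LN was 8.33 and 8.20 without IR and 9.85 and 9.60 with IR. In tumor it was 8.49 and 8.56 without IR and 9.45 and 9.45 with IR. The list was thus higher after IR in both tissues, and the counts do not show that uncalled members stayed unchanged. The lower count of 7 was 3 without tumor IR replicate 2, and Fas and Sesn2 were called with any single array left out.

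Other genes of the damage response differed little between the tissues. Of 30 genes of damage sensing and repair 1 was lower, Xrcc4 of end joining, and of 16 BCL2 family genes 1 was higher, the hypoxia gene Bnip3. Among 20 caspase and apoptosome genes Casp12 was higher, at 5.28 and 5.35 in LN IR and 7.59 and 7.65 in tumor IR, and Apaf1, the scaffold of the apoptosome, was lower, at 11.30 and 11.51 against 10.45 and 10.27. Without IR Apaf1 did not pass, at 9.52 and 9.14 in LN and 9.51 and 9.58 in tumor. The Apaf1 call was lost without LN IR replicate 2 or tumor IR replicate 2. None of 34 replication genes passed and 1 of 33 mitosis genes, Anln, did, and the Xrcc4 and Anln calls were lost without either tumor IR array. These lists split the LN IR arrays, with mean levels of 9.51 and 7.79 for mitosis on LN IR replicates 1 and 2 against 9.34 and 9.42 in tumor IR, and 24 mitosis genes were called higher when LN IR replicate 1 was left out.

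Immediate early genes, which are induced within minutes of T cell receptor or stress signals, were higher in 6 of 27 with a median log2 fold change of 0.22. Egr1 was at 11.24 and 11.69 in LN IR and 12.88 and 12.80 in tumor IR, Klf4 was at 10.17 and 8.99 against 11.31 and 12.34, and Gem, a small GTPase, was at 9.73 and 9.82 against 10.87 and 11.03. These 3 were higher on both tumor arrays. The AP-1 genes Fosb, Fosl2 and Jun did not pass after IR. Fosb was at 10.84 and 11.75 against 11.76 and 11.95, Fosl2 at 10.22 and 10.25 against 10.35 and 10.58, and Jun at 10.82 and 11.31 against 10.89 and 10.54. Without IR 2 of them were higher in tumor T cells, Fosb being at 9.54 and 9.48 in LN against 11.62 and 11.60 in tumor and Fosl2 at 7.70 and 7.28 against 9.76 and 9.89. The difference between the contrasts was -2.10 for Fosl2 (unadjusted p = 7.54e-05, adjusted p = 0.316 in limma) and -1.54 for Fosb (unadjusted p = 0.00548, adjusted p = 0.758). It was negative for 23 of the 27 genes, 10 of them with an unadjusted p under 0.05. Over all genes it was negative for 6227 of 18193, and negative at that level for 2.42%. The differences for Fosl2 and Fosb passed without LN IR replicate 1. The count of 6 rested on single arrays, being 2 or 1 without tumor IR replicate 1 or 2 and 3 without either array of unirradiated tumor T cells, and Gem was called with any single array left out.

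**Figure D4:**
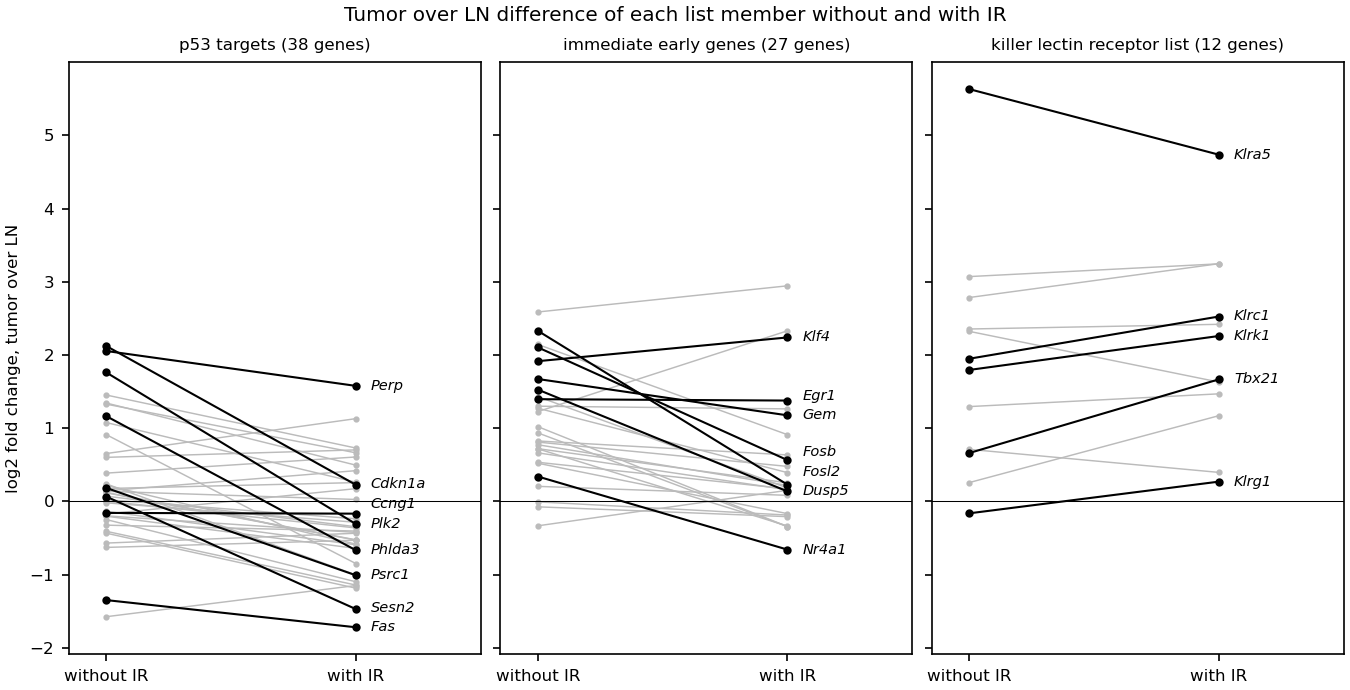
Log2 fold change of tumor over LN T cells without IR and with IR for each measured member of the p53 target, immediate early and killer lectin receptor lists, with a line per gene and selected genes in black. Cdkn1a, Phlda3, Sesn2, Fosb and Fosl2 slope down, and Klrc1 and Klrk1 stay above 0 on both sides.

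Set beside the unirradiated arrays, which share no array with the irradiated comparison, most differences between tumor and LN had the same sign. Of the 873 genes higher after IR 860 had a positive fold change without IR, and of the 364 lower genes 344 had a negative one. Over all genes the fold changes with and without IR correlated at r = 0.81, which is a correlation across genes on the same platform and in the same pair of experiments, and genes are not independent replicates. The test of the difference between the contrasts passed for none of the 18193 genes in limma, where 1024 had an unadjusted p under 0.05 (5.63%) and the smallest adjusted p was 0.249. The count was 18 in a robust fit, 1 with a mean-variance trend, and 770 or 2 when replicate 1 or 2 of LN IR was left out. Of the genes called after IR 253 had an unadjusted p under 0.05 in that test, and the contrast was larger with IR in 205 and smaller in 48. These genes were selected by the size of the contrast with IR, which by itself favors a larger contrast with IR. The count of 253 and its split are therefore not read as an effect of IR.

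**Figure D5:**
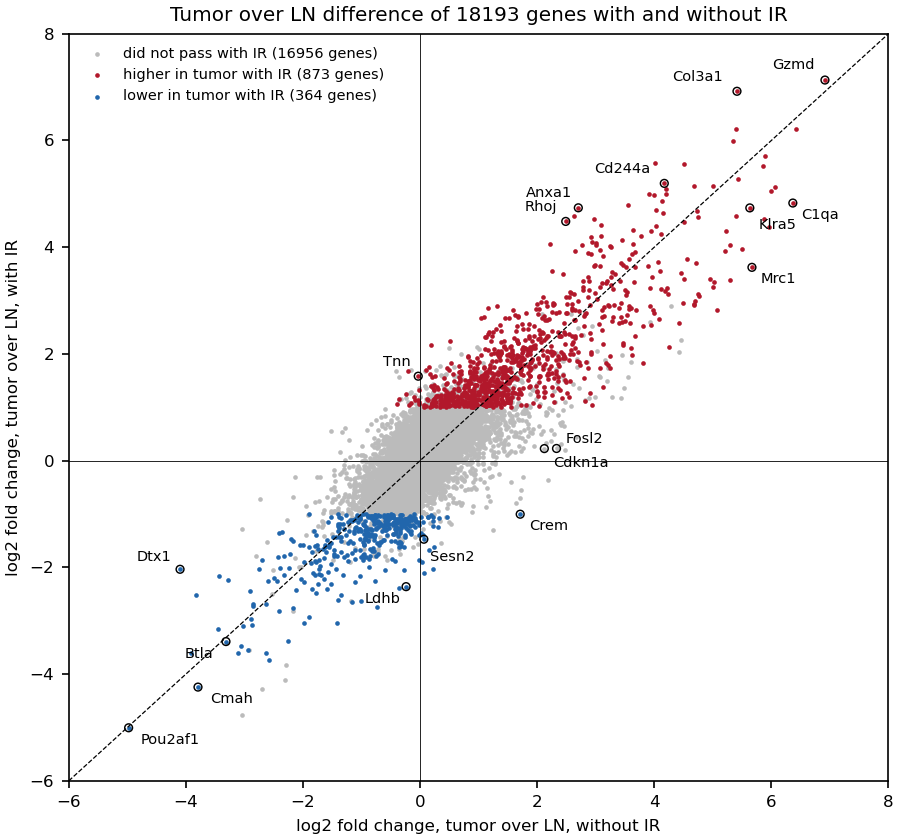
Log2 fold change of tumor over LN T cells for each of 18193 genes, without IR on the horizontal axis and with IR on the vertical axis, with genes called after IR in color and selected genes named. The dashed line marks equal fold changes, most called genes have the same sign on both axes, and Crem (1.71 without IR and -1.004 with IR) lies on the other side of 0.

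Of the genes whose contrast moved most, 7 are laid out here over the 8 arrays in 3 patterns, chosen after their values were seen, and others are not placed. In the first, LN T cells rose after IR and tumor T cells did not. Crem, a cAMP-responsive repressor, was at 7.798 and 7.548 in LN no IR, 10.62 and 10.56 in LN IR, 9.37 and 9.39 in tumor no IR and 9.83 and 9.34 in tumor IR. It was thus called higher in the tumor without IR and lower with IR, the only gene with calls in both directions. Ldhb, the lactate dehydrogenase chain that favors lactate use, was at 8.64 and 8.64, then 11.42 and 10.84 in LN, and at 8.26 and 8.54, then 8.91 and 8.63 in tumor. Dglucy, a mitochondrial enzyme of D-glutamate, was at 8.66 and 9.13, then 11.36 and 11.37 in LN, and at 8.90 and 9.03, then 9.19 and 9.34 in tumor. In both, only the irradiated LN arrays were high. The contrast after IR was -2.36 ± 0.23 for Ldhb and -2.10 ± 0.19 for Dglucy.

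In the second pattern only the tumor arrays were brighter after IR. Tnn, which encodes the matrix protein tenascin-N, was between 7.94 and 8.11 on the LN no IR, LN IR and tumor no IR arrays and at 9.53 and 9.66 in tumor IR, a rise over LN IR of 1.58 ± 0.14. Rhoj, a small GTPase of endothelial and other adherent cells, was at 4.21 and 4.04 in LN IR and at 8.76 and 8.45 in tumor IR. Without IR it was at 4.51 and 5.33 in LN and at 7.38 and 7.44 in tumor, and its change with IR in tumor T cells did not pass. Its LN values were dimmer after IR and all below the background level, so that its contrasts have no exact size. In the third, the LN arrays were dimmer after IR, which passed for Dtx1 and not for Anxa1. Anxa1, an anti-inflammatory annexin, was at 8.77 and 8.03, then 7.26 and 5.88 in LN, and at 11.13 and 11.07, then 11.17 and 11.44 in tumor, so that the contrast grew from 2.70 to 4.74. Dtx1, a Notch-regulated gene, was at 10.05 and 10.61, then 8.32 and 7.47 in LN, and at 6.10 and 6.37, then 6.01 and 5.71 in tumor, and the contrast shrank from -4.10 to -2.04. The difference was called for none of these 7 genes, with unadjusted p values from 2.09e-05 for Crem to 0.0135 for Anxa1 and adjusted p values in limma from 0.249 to 0.758. All 7 passed without LN IR replicate 1, the remaining LN IR array then being assumed to vary like the other groups.

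The 10 higher genes whose contrast shrank most after IR included the myeloid genes Mmp12, Clec5a, Mrc1, Fcgr4 and C1qc. C1qc, a complement component of macrophages, was at 10.70 and 11.48 in tumor no IR and at 8.90 and 10.57 in tumor IR, with 6.26 and 6.46 in LN IR. Of 23 macrophage markers 22 had a smaller contrast after IR, 6 of them with an unadjusted p under 0.05, where the difference was negative for 6227 of 18193 genes and negative at that level for 2.42%, and their summed intensity was 44083 and 67277 in tumor no IR against 21304 and 43997 in tumor IR. By replicate number the sum was lower after IR both times, 21304 against 44083 and 43997 against 67277. Across the numbers, the higher sum after IR lay next to the lower sum without IR.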

How the data were processed

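RNA of sorted T cells had been hybridized to Affymetrix mouse arrays, 2 for each of 4 groups. The authors normalized the scans by RMA, whose version the sources used here do not give, and deposited 1 table of log2 values for 45101 probe sets, used unchanged. The array annotation named 1 gene for 34945 probe sets, several for 932 and none for 9160, and 64 controls were left out. Each gene was read from the probe set of highest mean over the 8 arrays among those naming it alone, which gave 18193 genes.

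A linear model with 4 group means was fitted to 35877 annotated probe sets on all 8 arrays by least squares in limma 3.58.1 (R 4.3.3) with empirical Bayes moderation, and p-values were adjusted by Benjamini-Hochberg over these probe sets. A call needed an adjusted p under 0.1 and group means at least 1 log2 unit apart, as in the study, whose robust fit was an alternative and whose second method, SAM, was not run. With 2 arrays per group the robust fit understates the spread, and it called 1489 genes after IR against 1237. Errors beside differences are standard errors of the fit, with n = 2 arrays per group. The p-values measure the spread between these pooled samples. The number of arrays limits the precision. The scripts were tested on simulated data. Alternatives were a robust fit, a mean-variance trend, array weights, the 4 irradiated arrays alone, other thresholds, probe set rules and scalings, a replicate block, and leaving out each array.

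The 52 gene lists hold 1244 entries, of which 1142 were measured, and the rest are not analysed here. Members, lists and tests were chosen with earlier results of these data known, and the promoter motif of the interferon list was chosen after its values were seen. The genes named were the 12 largest calls in each direction, the 10 largest with both means at or above the lower quartile of the arrays, leading and defining members of each list, the 10 calls in each direction whose contrast differed most between IR and no IR, sort and radiation check genes, bright markers and genes the study names. The text gives those that its groups turn on. The printed promoters are RefSeq sequences of GRCm38.p6.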

Additional observations from a re-analysis of the deposited data

Results flagged for a closer look

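Crem, a cAMP-responsive repressor, is given here because its difference between tumor and LN T cells ran in opposite directions with and without IR on every array. Without IR both tumor arrays (9.37 and 9.39) lay above both LN arrays (7.798 and 7.548), and with IR both tumor arrays (9.83 and 9.34) lay below both LN arrays (10.62 and 10.56). The contrast with IR minus the contrast without IR was -2.71, with an unadjusted p of 2.09e-05 and an adjusted p of 0.249 in limma, so that the difference did not pass. It passed in the robust fit and without LN IR replicate 1. The contrast after IR, -1.004, lay at the fold threshold, and it was not called on the 4 irradiated arrays alone or through the Crem probe set of highest variance.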

How the results depend on the processing

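The genes called higher and lower after IR, 873 and 364, numbered 1534 and 818 with no fold limit, 313 and 65 at a log2 fold change of at least 2, and 1662 and 1021 when all annotated probe sets were counted (2352, 378 and 2683 in all). The lower count was 677 with the probe set of highest variance per gene. With 1 array left out the counts ranged from 426 to 1782 higher, from 142 to 630 lower and from 568 to 2412 in all. Without IR the counts were 1514 in all and 412 lower with no fold limit, 402 (357 and 45) at a log2 fold change of at least 2, 1953 (1591 and 362) over all probe sets, and 632 in all with 498 higher once the dimmer 50% of probe sets was left out. With 1 array left out they ranged from 540 to 1181 in all, from 458 to 942 higher and from 82 to 332 lower. The difference between the contrasts passed for 18 genes in the robust fit (5 higher and 13 lower), for 1 gene, lower, with a mean-variance trend, and for 0 to 770 genes with 1 array left out (0 to 548 higher and 0 to 222 lower). The cause of these shifts was not tested, apart from the thresholds and the number of probe sets counted. The robust fit understates the spread with 2 arrays per group, so calls made or kept in it are no separate support. Of 148 named genes called after IR, 148 kept the call in the robust fit and with the replicate block, 133 on the 4 irradiated arrays alone, 134 at an adjusted p under 0.05, 110 without tumor IR replicate 1, 100 without tumor IR replicate 2 and 130 without LN IR replicate 2, and none changed direction under any of these alternatives. An equal mean of T cell identity genes on every array shifted the median of all genes by 0.08.

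Replicate numbers are shared by the groups, but deviations of same-numbered samples correlated at 0.43 between the LN groups and between the tumor groups, at 0.07 and 0.01 between LN no IR and the tumor groups and at -0.13 and -0.14 between LN IR and the tumor groups. The numbers were not taken to pair LN with tumor samples, although they go together within a tissue. Such correlations over genes cannot show which samples share an experiment. Within an experiment, tumor and LN samples of the same treatment came from the same mice, and the main test leaves this pairing out. With a replicate block 942 genes were higher and 392 lower after IR (1334 in all), and with the LN numbers crossed, an alternative chosen after seeing the data, 967 and 404.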

Other observations

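Further lists are read against the 6.80% of all genes called after IR. Of 32 T cell receptor signaling genes 1 was higher and 1 lower, Dgka, a brake on diacylglycerol signals, at 11.67 and 11.79 in LN IR and 10.02 and 9.88 in tumor IR. Of 22 interleukin receptor genes 2 were higher and 2 lower, with 4 higher without LN IR replicate 1 and 1 higher without either tumor IR array. Il18rap, a chain of the IL-18 receptor, was at 8.20 and 8.27 against 9.36 and 9.30, and Il6st, the chain gp130 of the IL-6 receptor, was at 10.98 and 11.10 against 9.17 and 9.76. Of 23 Notch pathway genes Rbpj, the nuclear effector, was higher by 2.42 ± 0.39 and Dtx1 was lower, and the Rbpj call was lost without tumor IR replicate 1 and the Dtx1 call without tumor IR replicate 2. Of 21 NF-kB genes none was higher and 2 were lower, Ikbke, at 10.05 and 9.89 against 8.39 and 8.48, and Icam1, at 11.34 and 11.47 against 10.22 and 10.19, and both were called with any single array left out. The NF-kB list had 5 lower genes without LN IR replicate 2 and 1 higher gene without LN IR replicate 1. The heat shock genes Hspa1a and Hspa1b, near-identical copies, were the only 2 of 18 called, with Hspa1a at 5.52 and 6.46 in LN IR and 8.49 and 8.56 in tumor IR. The Hspa1b call was lost when any 1 of the 4 tumor arrays was left out. Tumors were digested with enzymes and LN were not, and the part of this in the heat shock genes was not tested.

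Of 12 endothelial markers 1 was called, and it was lower: Pecam1, which T cells also express, was at 10.37 and 9.81 in LN IR and at 8.49 and 8.43 in tumor IR. Of 10 CD4 and regulatory T cell markers Cd4 was lower, at 8.43 and 8.30 against 7.33 and 7.40, a call lost without LN IR replicate 1 or tumor IR replicate 1. None of 13 neutrophil markers and none of 11 mast cell and basophil markers was called.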
